A study of Mus musculus with 8 samples.

Results

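The comparison described here sets blood-forming progenitors labelled as lacking Nfat5 against matched progenitors labelled as carrying it. Its members were chosen by genotype label alone: the 4 libraries labelled N5 and DKO form the Nfat5-deficient side, and the 4 labelled WT and IFNAR form the Nfat5-sufficient side, which together are all 8 libraries of the series. WT donors had an intact Nfat5 gene and the Vav-Cre transgene, which drives recombination in blood-forming cells, and N5 donors had Nfat5 alleles flanked by loxP sites with the same Cre. IFNAR donors lacked IFNAR1, 1 of the 2 subunits that bind type I interferon, and DKO donors carried both defects. The label of the IFNAR donors names no Vav-Cre whereas that of the DKO donors does, so Cre and Nfat5 loss cannot be told apart in the DKO/IFNAR pairs. Marrow of CD45.2 donors had been transplanted into irradiated CD45.1 wild-type mice, and donor cells were sorted 13 weeks later, with 5 mice pooled for each library.

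Haematopoietic stem cells (HSC) were sorted as CD48-negative, CD150-positive cells and multipotent progenitors (MPP) as CD48-positive, CD150-negative cells, both within the LSK gate (lineage-negative, Sca-1-positive, Kit-positive). Each combination of cell type and genotype had 1 library. The deficient side was therefore compared with the sufficient side over 4 pairs that share no library: N5 with WT and DKO with IFNAR, in HSC and in MPP. The same mice may have given both cell types of a genotype, so p-values measure only the spread between these libraries. In such bulk samples, fewer cells of a type and less RNA per cell cannot be told apart.

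NFAT5 (also called TonEBP) is a transcription factor related to the NFAT and NF-kB proteins and, unlike the other NFAT proteins, is not switched on by calcineurin. In cells placed in salty medium it raises transporters and enzymes that load the cell with small organic solutes, among them taurine, sorbitol, myo-inositol and betaine, together with chaperones and the kinase SGK1. In leukocytes it also takes part in inflammatory and interferon gene expression. How many of these targets depend on it in unstressed marrow progenitors is the question that the matched pairs address.

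Total counts ran from 28871693 to 47205950 per library, and 12132 genes with enough counts were tested. Levels are given as counts scaled to library size (CPM) after TMM scaling, which corrects for differences in library composition. Nfat5 itself (ENSMUSG00000003847.17) did not follow the labels. It had 33.2, 3.12, 5.59 and 0.193 CPM in the sufficient libraries in the order HSC WT, HSC IFNAR, MPP WT and MPP IFNAR, and 22.7, 35.5, 7.69 and 11.5 CPM in their deficient partners, that is HSC N5, HSC DKO, MPP N5 and MPP DKO. It was lower in the deficient library in 1 of 4 pairs only, and since the sources do not say which exons were removed, a count over the whole gene may include exons that remain. Ifnar1 did not follow its label either, at 113, 35.1, 43.8 and 125 CPM in HSC IFNAR, HSC DKO, MPP IFNAR and MPP DKO against 37.2 to 126 CPM in the others. Every direction below rests on the labels, and a library is named by its label. The 2 cell types matched their gates: Slamf1, which encodes CD150, ran from 52.2 to 90.0 CPM in HSC and was at or below 0.0275 CPM in MPP, while Cd48 was at 0 in 3 HSC libraries, 6.36 CPM in the HSC library labelled IFNAR, and 202 to 284 CPM in MPP. Among markers of other cells, Cd3d, Cd3e, Cd3g and Trac of T cells and Cdh5, Lepr and Col1a1 of stroma and endothelium were at 0 in all 8 libraries. Other members of those lists were present: Lck ran from 0 to 79.1 CPM and Pecam1 from 15.4 to 183 CPM, Cd8a reached 10.1 CPM in MPP IFNAR, Kdr 31.2 CPM in HSC WT, and Emcn and Col1a2 75.6 and 20.2 CPM in HSC DKO. The part of such cells in the results was not tested.

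Below, the 4 sufficient values of a gene are always given in the order HSC WT, HSC IFNAR, MPP WT and MPP IFNAR, and the 4 deficient values follow in the order of their partners. Fold changes are log2 of deficient over sufficient from the model with cell type, Ifnar1 and Nfat5 as terms, with their standard error (SE). In edgeR's quasi-likelihood test, 0 of 12132 genes passed an adjusted p of 0.05 (percent called 0), and the adjusted p was 1 for each gene named below. At an unadjusted p under 0.05 the same test held 338 genes, 2.79% of those tested, with 171 higher (1.41%) and 167 lower (1.38%). limma-voom also called 0 genes, while DESeq2 called 166, 83 in each direction (0.684% each), which is 1.37% of the genes. The 3 tools differ in how they estimate spread from single libraries, so a DESeq2 adjusted p given below stands against 1 from edgeR, and over the alternatives other than DESeq2 the adjusted p of the named genes ran from 0.133 to 1.

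How far a pair of libraries differed depended on the level of the transcript. In genes of 10 to 50 CPM, the median absolute log2 ratio was 1.06 for N5/WT and 1.07 for DKO/IFNAR among HSC, and 0.744 and 0.842 among MPP. From 200 CPM upwards it was 0.314 and 0.279 in HSC and 0.196 and 0.221 in MPP. A 2-fold difference in 1 pair was thus common for weakly expressed genes in every pair, and for that reason the description favours the 4669 genes with a mean of 50 CPM or more.

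**Figure D1:**
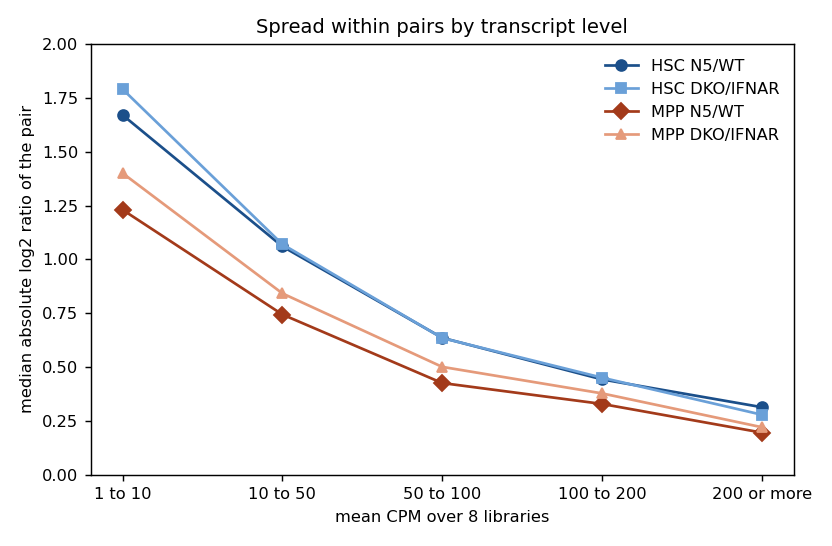
Median absolute log2 ratio of deficient over sufficient library (vertical axis) against the mean level over 8 libraries in CPM (horizontal axis), with 1 line for each of the 4 pairs. In each pair the median falls with level, from between 1.23 and 1.79 at 1 to 10 CPM to between 0.196 and 0.314 at 200 CPM or more, and both HSC lines lie above both MPP lines at every level.

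Of the 4669 abundant genes, 264 were higher in the deficient library in all 4 pairs (5.65%) and 308 were lower in all 4 (6.60%), or 12.3% in either direction. The same count over the 4 pairs that differ in the Ifnar1 label gave 13.7%, and over the 4 pairs of HSC with MPP it gave 27.2%. Random signs would agree in all 4 pairs for a share of 0.125 of genes. The 12.3% is not above that share, so one direction alone does not set a gene apart. Between 10.3% and 22% of the abundant genes differed by 2-fold or more in a single pair, but 1 gene in each direction did so in all 4 pairs: Idua was higher and Pomgnt2 lower. The 4 pairs had little in common across genes. Pearson correlations of log2 ratios between any 2 of them ran from -0.0406 to 0.0776 over the 4669 genes, which are not independent replicates. Over the genes of one direction, the median of the weakest pair was 0.11 for higher and -0.13 for lower genes on the log2 scale.

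**Figure D2:**
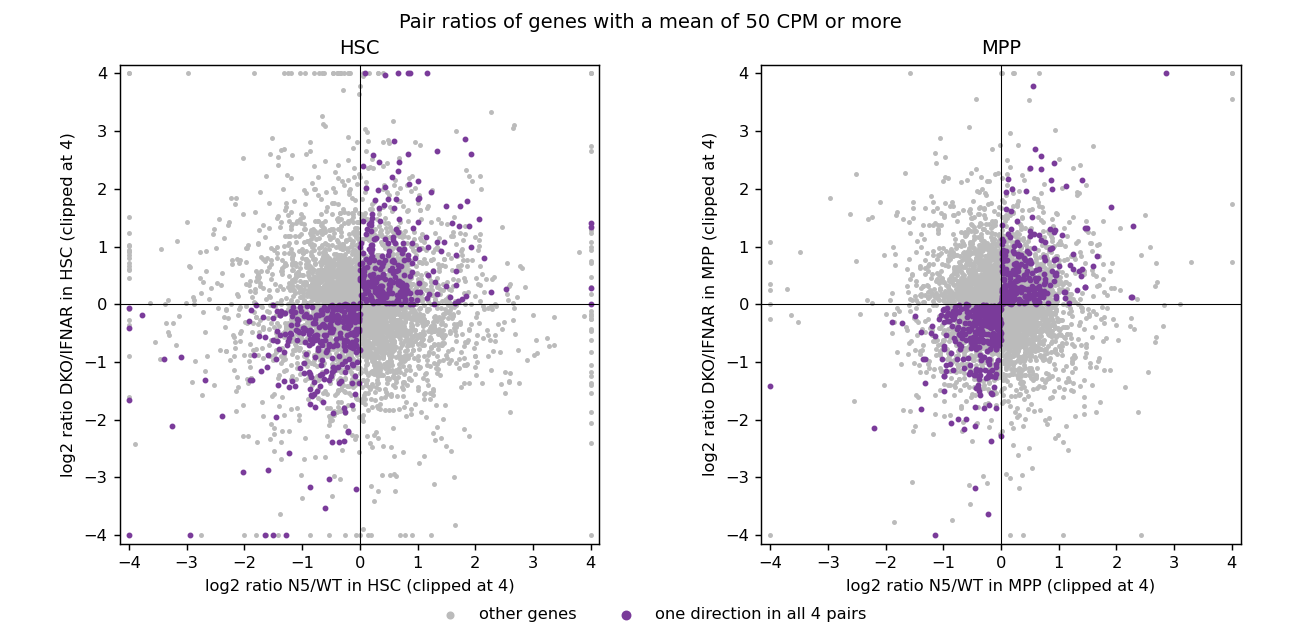
Log2 ratios of N5 over WT (horizontal axis) against DKO over IFNAR (vertical axis) in HSC (left) and in MPP (right), with 1 point for each of 4669 genes of 50 CPM or more and values clipped at 4. Grey genes lie on every side of the origin in both panels, and the purple genes, 264 higher and 308 lower in all 4 pairs, lie mostly near the centre.

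The osmotic stress list holds known NFAT5 targets, and its members did not share one pattern. Of its 17 genes, Slc6a12, Slc14a2, Aqp2 and Ranbp3l were at 0 in all 8 libraries, and 12 passed the filter on low counts. Of those 12, 9 had a log2 fold change below 0, with a median of -0.49 against 0.02 over all tested genes, and 2 were lower in all 4 pairs. Of all tested genes, 5.79% were higher and 5.35% lower in all 4 pairs, 11.1% in either direction, against 16.7% of this list. The HSC pairs had list medians of -0.95 (N5/WT) and -0.42 (DKO/IFNAR), and the MPP pairs 0.02 and -0.23. None of the 12 passed edgeR's test, and 1, Sgk1, had an unadjusted p under 0.05.

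Sgk1 (ENSMUSG00000019970.16) encodes a kinase that regulates ion channels and transporters and is raised by salt stress. It had 59.3, 43.0, 8.87 and 6.49 CPM in the sufficient libraries and 0, 0, 1.16 and 0 CPM in the deficient ones. All 4 sufficient libraries lay above all 4 deficient ones, which held no count in 3 of 4 cases. The fitted log2 fold change was -8.78 (SE 3.43), a value that depends on the prior count because 3 libraries were at 0, and DESeq2 gave an adjusted p of 0.000397. S100a4, a calcium-binding protein, was the other member lower in all 4 pairs, at 11.3, 22.3, 10.7 and 13.1 CPM against 0, 6.38, 2.67 and 8.13 CPM, and there too the groups did not overlap.

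Taurine is one of the solutes that NFAT5 is known to bring into cells. Slc6a6 (ENSMUSG00000030096.9), which encodes the taurine transporter, had 114, 75.6, 149 and 124 CPM in the sufficient libraries and 44.2, 79.2, 54.6 and 126 CPM in the deficient ones. It was more than 2-fold lower under N5 than under WT in both cell types and close to equal under DKO and IFNAR in both, so the groups overlapped. Over the WT and N5 libraries alone the log2 fold change was -1.40, over the IFNAR and DKO libraries alone it was 0.06, and the difference between these 2 values was not tested.

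Csad, which encodes the decarboxylase of taurine synthesis, had 162, 70.9, 107 and 36.9 CPM in the sufficient libraries and 88.6, 25.6, 54.0 and 15.6 CPM in the deficient ones. It was lower in each of the 4 pairs by a similar ratio, although the groups overlapped because levels also differed between WT and IFNAR. The log2 fold change was -1.14 (SE 0.24), and DESeq2 gave an adjusted p of 3.70e-05. Csad was in no list, and it is named because its weakest pair and its p ranked among the first of the abundant genes. The remaining solute genes stayed on both sides of 0. Akr1b3, which makes sorbitol, had 286, 131, 259.6 and 269.7 CPM and 217, 283, 247 and 237 CPM on the 2 sides, and its log2 fold change was 0.08 (SE 0.26). Slc5a3, the myo-inositol transporter, ranged from 0.0550 to 28.2 CPM, higher in 2 pairs and lower in 2. Slc38a2, an amino acid transporter, was lower in 3 of 4 pairs, with 209, 131, 213 and 162 CPM against 101, 188, 149 and 135 CPM. Hspa1a, an inducible chaperone, was at 0 in 3 of 4 HSC libraries and in MPP read 24 and 23.4 CPM on the sufficient and 11.7 and 9.74 CPM on the deficient side.

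**Figure D3:**
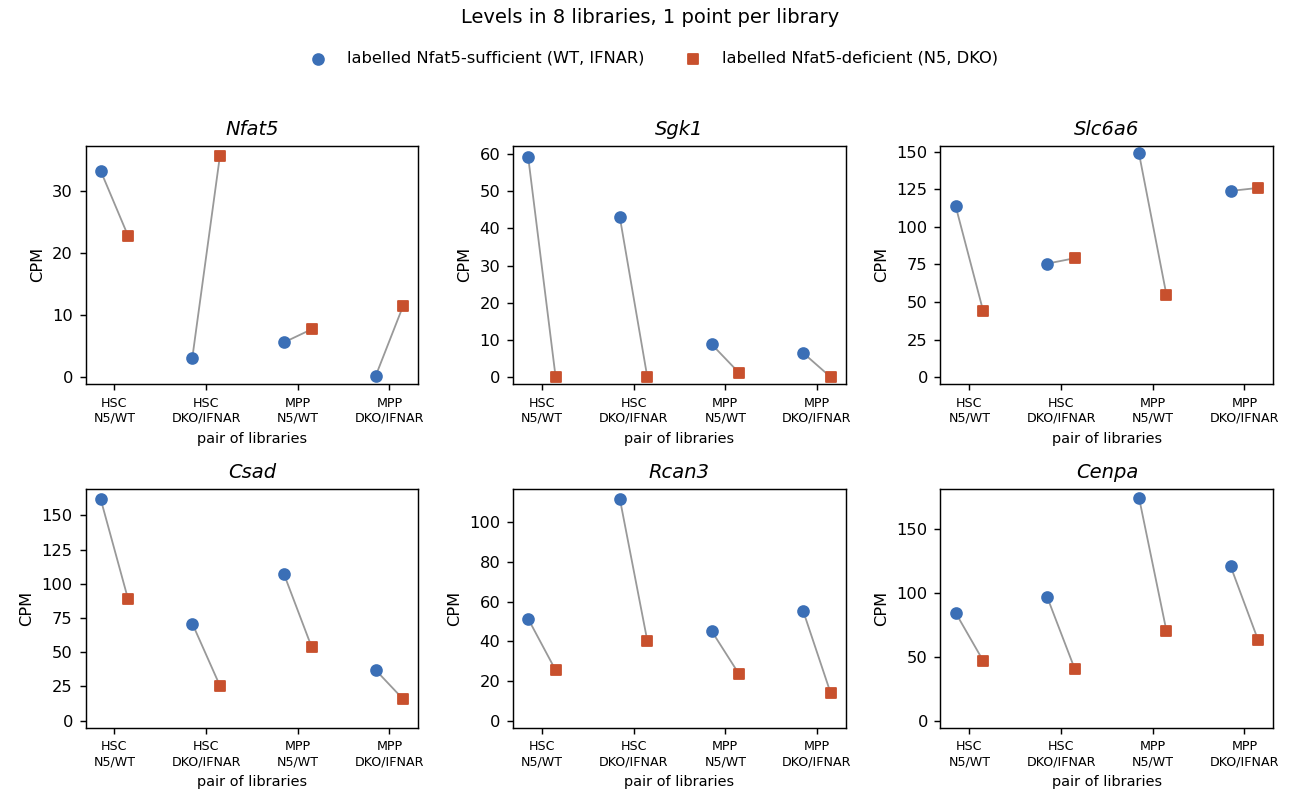
Levels in CPM (vertical axis, linear, a separate scale for each panel) of 6 genes in the 4 pairs (horizontal axis), with 1 point for each library and a line joining the 2 libraries of a pair. Sgk1, Csad, Rcan3 and Cenpa are lower in the deficient library of each pair, Slc6a6 only where N5 is set against WT, and Nfat5 is lower only in the HSC pair of N5 and WT.

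Genes of the NFAT and calcineurin list were measured because the other NFAT proteins share the DNA-binding domain of NFAT5. Of 15 genes, 11 were tested, 6 lay below 0, and the median log2 fold change was -0.20. Rcan3, an inhibitor of calcineurin, was the 1 member lower in all 4 pairs (9.09% of the list). It had 51.4, 112, 45.3 and 55.3 CPM in the sufficient libraries and 25.4, 40.3, 23.5 and 13.8 CPM in the deficient ones. The sufficient libraries all lay above the deficient ones, with a log2 fold change of -1.33 (SE 0.43) and a DESeq2 adjusted p of 0.0474. The transcription factors Nfatc1, Nfatc2 and Nfatc3 had log2 fold changes of -0.20, -0.69 and 0.83, with both signs among the pairs of each. Nfatc2 was low in the 2 deficient HSC libraries, at 32.4 and 20.9 CPM against 65.8 and 95.6 CPM, and in MPP it read 30.4 and 35.7 CPM against 25.1 and 34.0 CPM. For cell volume control, 15 of 17 genes were tested and the median was 0.10. Its 1 member of one direction (6.67%, against 11.1% of all tested genes) was Lrrc8c, a subunit of the volume-regulated anion channel. Lrrc8c was lower in all 4 pairs with a log2 fold change of -0.52 (SE 0.32).

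Cenpa (ENSMUSG00000029177.10) gave one of the smallest p-values of the comparison. It encodes the histone H3 variant that marks the centromere, where the kinetochore assembles for cell division. It had 84.6, 96.7, 175 and 121 CPM in the sufficient libraries and 47, 40.4, 70.2 and 63.0 CPM in the deficient ones, or 119 ± 40.2 and 55.2 ± 13.8 CPM (mean ± SD, n = 4 each). All 4 sufficient libraries lay above all 4 deficient ones, and the ratios of the pairs lay close together, from -0.85 to -1.32 on the log2 scale. The log2 fold change was -1.10 (SE 0.21) and DESeq2 gave an adjusted p of 2.79e-05.

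The promoter of Cenpa is shown because this gene was lower by a similar ratio in each pair. The windows run from 250 bases before to 50 bases after the annotated start, from RefSeq on GRCm38.p6, an earlier build than the one the counts were made on. The search covered CCAAT (bound by factor NF-Y), TTTGAA (an element of genes that peak before cell division) and TGGAAA (the core of an NFAT5 site), each on both strands, so that the reverse complement of a motif counts as a match. Capitals mark them in the windows below, each written 5′ to 3′ on the strand of the gene.
Cenpa, chr5:30666636-30666935, plus strand: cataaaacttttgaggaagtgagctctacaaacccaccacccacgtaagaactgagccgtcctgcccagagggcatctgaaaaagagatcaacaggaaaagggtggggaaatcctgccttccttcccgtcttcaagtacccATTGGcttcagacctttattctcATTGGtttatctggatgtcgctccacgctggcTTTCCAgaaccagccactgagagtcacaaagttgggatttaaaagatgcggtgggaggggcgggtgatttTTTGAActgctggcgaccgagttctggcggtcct
Sgk1, the most downstream of 6 starts, chr10:21994416-21994715, plus strand: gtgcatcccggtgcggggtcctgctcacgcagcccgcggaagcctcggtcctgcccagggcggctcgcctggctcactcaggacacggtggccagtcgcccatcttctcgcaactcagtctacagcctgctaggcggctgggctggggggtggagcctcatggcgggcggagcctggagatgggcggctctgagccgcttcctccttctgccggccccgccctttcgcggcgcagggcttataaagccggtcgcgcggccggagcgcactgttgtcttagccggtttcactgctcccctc
Ifrd1, chr12:40223140-40223439, minus strand: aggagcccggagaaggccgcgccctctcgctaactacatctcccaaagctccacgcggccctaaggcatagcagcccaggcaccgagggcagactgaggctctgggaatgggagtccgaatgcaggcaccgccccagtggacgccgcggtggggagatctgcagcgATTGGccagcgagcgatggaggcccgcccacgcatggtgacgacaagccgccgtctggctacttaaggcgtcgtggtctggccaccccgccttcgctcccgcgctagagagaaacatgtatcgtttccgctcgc
The Cenpa window held 2 matches to CCAAT, 1 to TTTGAA and 1 to TGGAAA. Among 32544 RefSeq promoter windows of the same length, 37.4% held CCAAT, 17.8% TTTGAA and 21.5% TGGAAA. The Sgk1 window shown held none of the 3, but of its 5 other windows 2 held CCAAT, 2 TTTGAA and 2 TGGAAA, and 1 held none. The window of Ifrd1, one of the abundant genes higher in all pairs, held 1 match to CCAAT. Windows not shown were those of Idua and Slc9a8, also higher, which held none of the 3 motifs. Those of Pomgnt2 and Ms4a3, lower in all pairs, held 1 match to CCAAT each. TGGAAA was absent from the windows of Ifrd1, Idua, Slc9a8, Pomgnt2 and Ms4a3. A match describes the letters and not a bound site, and the deposited data hold no measure of binding. The GRCm38.p6 table used here gave no window for Slc6a6 or Uba6.

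Other genes of cell division lay on both sides of 0. All 54 genes of the kinetochore and mitosis list were tested, and 35 lay below 0, with a median log2 fold change of -0.11. The list median was -0.51 in the MPP pair of N5 and WT and between -0.10 and 0.17 in the other 3 pairs. Cenpa, Cenpk, Ndc80 and Kif23 were lower in all 4 pairs and Cenpt and Cenpw higher, or 11.1% of the list against 11.1% of all tested genes. Cenpa was the 1 member with an unadjusted p under 0.05. Hjurp, the chaperone that loads CENP-A onto chromatin, was lower under N5 than under WT and higher under DKO than under IFNAR, with 289, 159, 458 and 339.5 CPM against 209.9, 233, 288 and 379.6 CPM. The cycling genes Mki67, Top2a, Ccnb1 and Cdk1 each had 2 pairs of each sign. Kif23, a kinesin of cytokinesis, had 95.0, 36.2, 109 and 128 CPM against 55.4, 28.7, 77.8 and 86.7 CPM, and the groups overlapped.

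For DNA replication, 38 genes were tested with a median of -0.03. In all 4 pairs 2 were higher and 2 lower, 10.5% of the list against 11.1% of all tested genes. Pcna, the sliding clamp, had 277, 229.9, 344 and 439.6 CPM against 228, 208, 306 and 332 CPM, with a log2 fold change of -0.26 (SE 0.14). Rfc2, a subunit of the clamp loader, had 305, 283, 460.1 and 469 CPM against 238, 240.3, 379.8 and 407 CPM, with -0.27 (SE 0.10). Both were lower in the deficient libraries of each cell type with no overlap there. Rrm2, of nucleotide synthesis, and Gins4, of the replicative helicase, were the 2 members higher in all 4 pairs, by 0.41 (SE 0.26) and 0.57 (SE 0.34). Kiz, which stabilises spindle poles and was in no list, had 71.1, 130.02, 57.1 and 52.2 CPM against 40.2, 43.2, 12.4 and 11.8 CPM. Its groups did not overlap, its log2 fold change was -1.71 (SE 0.39), and DESeq2 gave an adjusted p of 0.000508.

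The abundant genes with the clearest common direction were taken as the 20 in each direction whose weakest pair was largest. Predicted genes and pseudogenes were among those left out. This choice fixed the direction and, by asking for a large weakest pair, also favoured sides that do not overlap. Counts of non-overlap are therefore a description only. Within HSC and within MPP the sides did not overlap for 18 of the 20 higher and 14 of the 20 lower genes, against 2.33% and 2.74% of all abundant genes. Over all 8 libraries they did not overlap for 10 and 8, against 0.771% and 1.18%. DESeq2 called 10 of the 20 in each direction, against 43 of all 4669 abundant genes. Each of those 43 had one direction in the 4 pairs, while 52 of all its 166 calls had a mean under 10 CPM. DESeq2 read the same libraries, so these counts are no separate support.

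**Figure D4:**
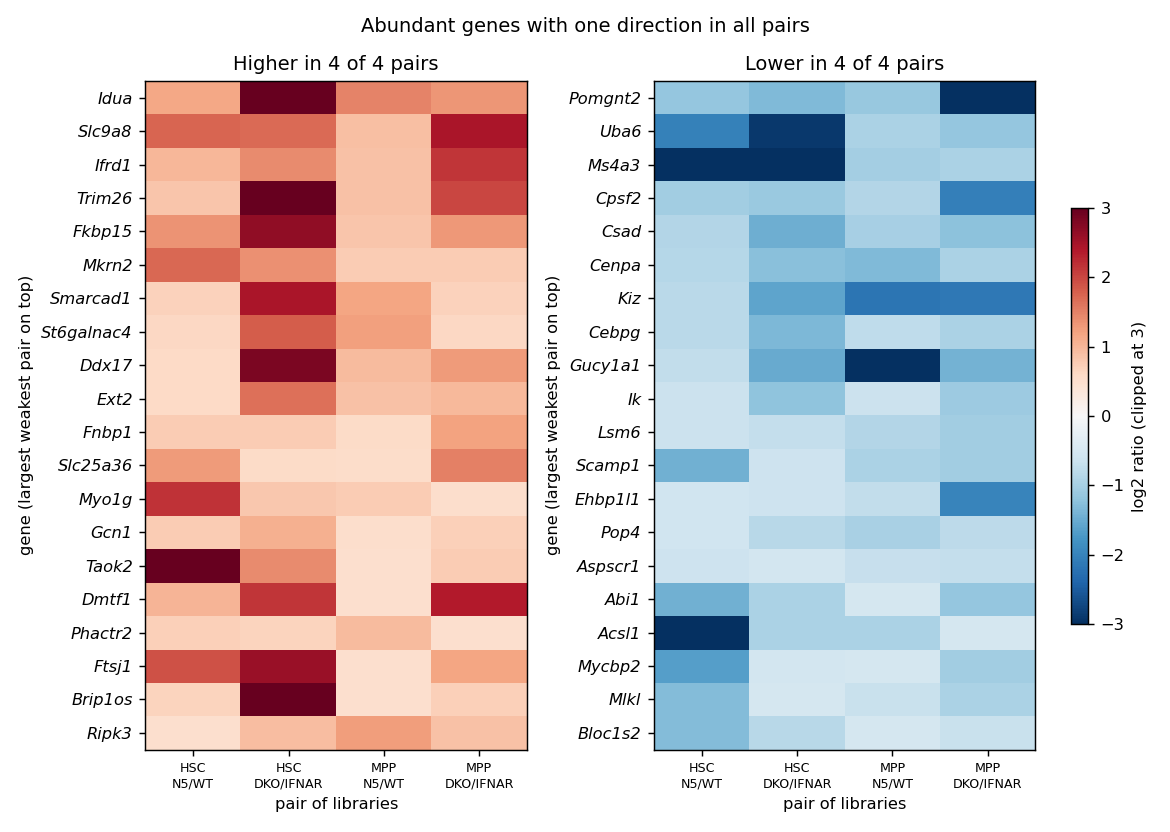
Log2 ratios of deficient over sufficient library in each of the 4 pairs (columns) for the 20 higher (left) and 20 lower (right) abundant genes (rows, largest weakest pair on top), in colour clipped at 3. In Idua, Trim26, Taok2, Brip1os, Pomgnt2, Ms4a3, Gucy1a1 and Acsl1 at least 1 pair reaches the end of the scale.

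A kinase and its target in necroptosis, a form of inflammatory cell death, stood in these sets on opposite sides. Ripk3 had 106, 98.3, 93.7 and 78.4 CPM in the sufficient libraries and 149.98, 187, 223 and 145 CPM in the deficient ones. The deficient libraries all lay above the sufficient ones, with a log2 fold change of 0.91 (SE 0.21) and a DESeq2 adjusted p of 0.00841. Mlkl, which RIPK3 activates to break the plasma membrane, had 83.9, 61.0, 105 and 106 CPM against 33.9, 42.5, 66.6 and 55.0 CPM. It was lower in each deficient library of a cell type with no overlap there, at a log2 fold change of -0.85 (SE 0.25), with a DESeq2 adjusted p of 0.0231.

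The genes below are grouped by function only, after their values were seen and with no list tested. Of the lower genes, some act in RNA processing and ubiquitin transfer, as do Ddx17, Ftsj1, Mkrn2 and Trim26 among the higher ones. Ik, a factor of the spliceosome, had 165, 321, 213 and 270.1 CPM against 105, 139, 135 and 126 CPM, with no overlap, a log2 fold change of -0.91 (SE 0.19) and a DESeq2 adjusted p of 0.00274. Lsm6, of the ring that binds the U6 spliceosomal RNA, had 99.4, 77.7, 166 and 152 CPM against 63.5, 47.6, 90.1 and 73.8 CPM, with no overlap within a cell type, -0.82 (SE 0.18) and 0.000313 in the same terms from DESeq2. Cpsf2, of the complex that cleaves messenger RNA ends, and Pop4, of RNase P, were lower at a log2 fold change of -1.18 (SE 0.42) and -0.81 (SE 0.31), and DESeq2 called neither. Uba6, an enzyme that activates ubiquitin, had 84.7, 125, 69.9 and 68.8 CPM in the sufficient libraries and 20.7, 16.7, 36.0 and 30.8 CPM in the deficient ones. Its groups stood well apart, with a log2 fold change of -1.77 (SE 0.43) and a DESeq2 adjusted p of 0.00374. Mycbp2, a ubiquitin ligase, was lower at a log2 fold change of -0.93 (SE 0.32) with no overlap between the sides.

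Other lower genes act in membrane traffic and at the cell cortex, as do Fnbp1 and Myo1g among the higher ones. Scamp1, a carrier protein of secretory vesicles, had 123, 101, 76.3 and 91.1 CPM against 45.2, 65.2, 39.3 and 43.9 CPM and did not overlap, with -1.03 (SE 0.24) and a DESeq2 adjusted p of 0.00154. Aspscr1, which holds glucose transporters inside the cell, had 163, 174, 189.6 and 153 CPM against 106, 119.6, 117 and 92.5 CPM and did not overlap either, with a log2 fold change of -0.64 (SE 0.17). Abi1, of the WAVE complex that starts actin branches, Bloc1s2, of lysosome positioning, and Ehbp1l1, a Rab effector, had log2 fold changes of -1.03, -0.85 and -0.99. Acsl1, which activates long-chain fatty acids, was lower at a log2 fold change of -1.34 (SE 0.54), and its lowest value was 4.31 CPM in the HSC library labelled N5. Gucy1a1, a subunit of the nitric oxide receptor, was mainly an HSC transcript, at 153 and 136 CPM under WT and IFNAR and 91.2 and 47.7 CPM under N5 and DKO. Pomgnt2, which extends O-mannose glycans, had 127, 104, 75.9 and 13.3 CPM against 56.4, 41.2, 34.3 and 0 CPM, lower by more than 2-fold in each pair, but its low MPP values under IFNAR and DKO left an SE of 1.40 on a log2 fold change of -1.61. Cebpg, a bZIP transcription factor, was lower at a log2 fold change of -0.95 (SE 0.33), with overlapping sides.

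The higher genes included 3 enzymes of glycan synthesis or breakdown, while Pomgnt2, also an enzyme of glycan synthesis, was among the lower ones. Ext2, of heparan sulphate chain growth, had 159.8, 118, 147 and 92.3 CPM in the sufficient libraries and 240.3, 375, 272 and 182 CPM in the deficient ones. Its sides did not overlap, with a log2 fold change of 1.06 (SE 0.25) and a DESeq2 adjusted p of 0.00718. St6galnac4, a sialyltransferase, had 79.1, 44.8, 79.1 and 73.7 CPM against 122, 159, 187 and 113 CPM, again with no overlap, 1.09 (SE 0.26) and a DESeq2 adjusted p of 0.0109. Idua, the lysosomal enzyme that degrades heparan and dermatan sulphate, had 36.4, 0, 22.4 and 52.0 CPM against 82.0, 50.9, 62.8 and 129.8 CPM. It was more than 2-fold higher in each pair, but the 0 in the HSC library labelled IFNAR left a wide SE of 1.56 on a log2 fold change of 1.70. No list of glycan genes was tested.

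Slc9a8, a sodium-proton exchanger, had 35.2, 40.9, 64.1 and 12.2 CPM in the sufficient libraries and 118, 133, 121 and 66.6 CPM in the deficient ones. Each deficient library lay above every sufficient one, with a log2 fold change of 1.58 (SE 0.48) and a DESeq2 adjusted p of 0.0478. Ifrd1, a transcriptional coregulator, had 64.6, 38.2, 35.1 and 14.6 CPM against 129.5, 102, 64.2 and 65.0 CPM, higher in each cell type with no overlap there, by 1.36 (SE 0.31), with a DESeq2 adjusted p of 0.00276. Gcn1, which couples stalled ribosomes to the stress kinase GCN2, had 108, 83.3, 141 and 121 CPM against 182, 175, 202 and 198 CPM. Its sides did not overlap, its log2 fold change was 0.76 (SE 0.15), and DESeq2 gave an adjusted p of 0.000411.

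Dmtf1, a transcription factor that induces the tumour suppressor Arf, had 63.8, 26.5, 55.1 and 21.1 CPM against 128, 117, 78.7 and 109 CPM, did not overlap, and differed by 1.52 (SE 0.39) with a DESeq2 adjusted p of 0.0120. Mkrn2, a ubiquitin ligase, and Ftsj1, a methyltransferase of tRNA, were higher by 1.16 (SE 0.31) and 1.56 (SE 0.45), and both were among the DESeq2 calls. Myo1g, a myosin of blood cells, and Fnbp1, which bends membranes, were higher by 1.0 (SE 0.37) and 0.80 (SE 0.23). Smarcad1, a chromatin remodeller, Ddx17, an RNA helicase, and Slc25a36, a mitochondrial nucleotide carrier, had log2 fold changes of 1.22, 1.31 and 0.90, and DESeq2 called none of the 3. Trim26, a ubiquitin ligase, and Taok2, a kinase of stress signalling, each had 1 sufficient HSC library at 0 counts, IFNAR for the former and WT for the latter. Fkbp15 and Phactr2 were higher by 1.60 and 0.71. Brip1os, a transcript read from the opposite strand near Brip1, cannot be separated from overlapping genes in a library without strand, and its lowest value was 1.87 CPM in the HSC library labelled IFNAR. Around the limit of 50 CPM, Tmem258 and Mfap1a lay just inside at a mean of 50 CPM, and Tubgcp5 and Pidd1 just outside at 49.8 and 49.9 CPM.

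At low levels some genes were present on one side only. With 0 counts in all 4 libraries of a side and at least 5 CPM in each of the other, 2 genes stood higher (0.0165% of tested genes) and 2 lower (0.0165%), a criterion set after the values were seen. The same criterion over the Ifnar1 label gave 0 higher and 4 lower genes (0.0330%). Slamf8, a receptor of myeloid cells related to CD150, had 36.9, 28.4, 5.20 and 7.14 CPM in the deficient libraries. Their mean of 19.4 CPM was at least 225-fold above a floor of 3 counts per sufficient library. Like the bounds that follow, this one holds for the mean of 4 libraries and not for each library. Ston2, an adaptor of endocytosis, had 5.87, 23.2, 9.41 and 23.1 CPM, with a mean at least 178-fold above that floor. Hif3a, a hypoxia-inducible factor subunit, had 15.8, 41.4, 15.5 and 12.5 CPM in the sufficient libraries. Their mean was at least 243-fold above the floor of the deficient ones. Mlf1, a myeloid leukaemia factor, had 10.1, 18.1, 5.53 and 16.3 CPM in the sufficient libraries, with a mean at least 142-fold above. These bounds cover the error of counting reads only, and not the loss of molecules before amplification. In a single pair, 55.5% to 60.3% of genes of 1 to 10 CPM, where Slamf8, Ston2 and Mlf1 lay, and 38.5% to 52.0% of genes of 10 to 50 CPM differed by 2-fold or more.

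With predicted genes, pseudogenes and the other classes named in the methods left out, the 10 smallest p-values included 6 further genes of low level. Ppip5k1, a kinase of inositol phosphates, had 0, 0, 0.0331 and 0 CPM in the sufficient and 29.5, 14.3, 28.9 and 7.67 CPM in the deficient libraries, with a DESeq2 adjusted p of 2.68e-11. Zfp820, a zinc finger gene, showed the opposite, with 26.5, 8.28, 10.3 and 40.0 CPM against 0.0652, 0, 0.0351 and 0 CPM and a DESeq2 adjusted p of 1.75e-09. Rnf150, a ubiquitin ligase, had 0, 0.204, 0 and 0 CPM against 11.9, 8.82, 1.97 and 3.74 CPM. Each of these had no overlap between the sides and near absence on one of them. Slc36a1, a lysosomal amino acid transporter, was mainly an MPP transcript, at 17.1 and 5.89 CPM under WT and IFNAR against 0.386 and 0.0566 CPM. H4c11, a histone gene, was under 6 CPM in each library. Dynlt2a2, a dynein light chain gene, was at 0 in all sufficient libraries and 1.03 to 2.81 CPM in the deficient ones. The mean of the deficient ones was at least 17.9-fold above the floor. Reads of H4c11, Dynlt2a2 and Zfp820 may be shared with near-identical copies, which makes their counts uncertain.

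The progenitor priming list holds myeloid genes together with lymphoid and general progenitor genes such as Dntt, Il7r and Cd34. Most of its members had a lower fitted level on the deficient side. In it, 18 of 23 tested genes had a log2 fold change below 0, with a median of -0.72, and 6 were lower and 1 higher in all 4 pairs, or 30.4% of the list against 11.1% of all tested genes. None passed edgeR's test and none had an unadjusted p under 0.05. The list medians of the pairs were all smaller in size than the fitted one. They were 0.00 (N5/WT) and -0.34 (DKO/IFNAR) in HSC, and -0.15 and -0.30 in MPP. The median was -0.23 over the WT and N5 libraries alone and -0.55 over the IFNAR and DKO libraries alone, so the fitted median over all 8 exceeds each in size. The 6 lower members were Mpo, Elane, Ctsg, Ms4a3, Flt3 and Ccl9. The granule enzyme gene Mpo had 147, 303, 6182 and 8757 CPM in the sufficient libraries and 47, 0, 3743 and 8026 CPM in the deficient ones. Elane, encoding neutrophil elastase, had 37.3, 100.5, 782 and 1397 CPM against 13.1, 0, 418 and 1144 CPM, and Ms4a3, a marker of granulocyte-monocyte progenitors, 2.43, 5.08, 142 and 237 CPM against 0, 0, 69.8 and 123 CPM. In each of the 3, MPP levels were many times those of HSC, and the HSC library labelled DKO held 0 counts. Csf3r, the receptor of granulocyte colony-stimulating factor, was the member higher in all 4 pairs, with 84.2, 65.3, 189 and 237 CPM against 192, 92, 231 and 285 CPM.

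Markers of mature neutrophils were low in 1 library, in a pair where the priming list had a median of -0.15. The summed level of 14 neutrophil genes was 146 CPM in the MPP library labelled N5 and 616 to 969 CPM in the other 7 libraries. Its list median was -2.24 in that pair and 0.19 to 0.28 in the other 3. S100a8, S100a9, Ltf, Camp and Ngp were each lowest there, with Ltf at 19.0 CPM against 217 CPM under WT. For monocyte and macrophage markers, 7 of 9 tested genes lay below 0, against 5875 of 12132 tested genes. The fitted median was -1.17, against 0.02 over all tested genes. The medians of the pairs were smaller in size, at -0.60 (N5/WT) and 0.00 (DKO/IFNAR) in HSC, and -0.73 and -0.41 in MPP. The sum of these markers ran from 643 to 1137 CPM in deficient and from 781 to 1495 CPM in sufficient libraries. The part of such cells in the priming genes was not tested. Without the MPP library labelled N5, the log2 fold changes of Elane, Ctsg and Ms4a3 were -1.73, -2.31 and -3.92, against -1.70, -1.84 and -3.31 with it.

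**Figure D5:**
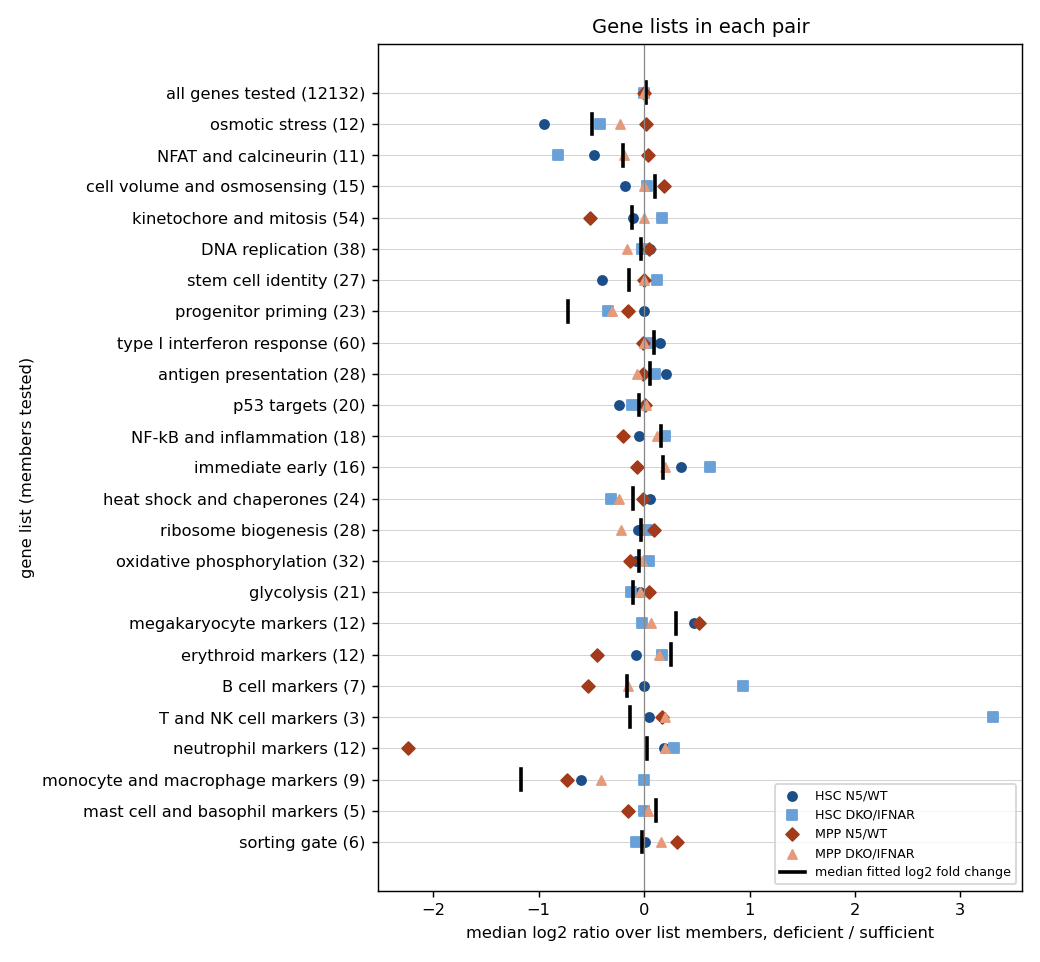
Median log2 ratio of deficient over sufficient library (horizontal axis) for each gene list with 3 or more tested members (vertical axis, number of members in brackets), with 1 symbol for each of the 4 pairs and a bar for the median fitted log2 fold change. The neutrophil list reaches -2.24 in the MPP pair of N5 and WT, and the list of T and NK cells, with 3 tested members, reaches 3.31 in the HSC pair of DKO and IFNAR.

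Stem cell identity genes were mixed. Of 30, 27 were tested, 10 lay above and 17 below 0, and the median was -0.14. In all 4 pairs 2 were higher and 3 lower, 18.5% of the list against 11.1% of all tested genes. Meis1, a homeobox factor that sustains stem cells, had 364, 324, 184 and 214 CPM in the sufficient libraries and 527, 401, 321 and 245 CPM in the deficient ones. It was higher in each cell type with no overlap there, by 0.45 (SE 0.14). Mycn, a Myc family factor, had 369, 544, 41.9 and 51.3 CPM against 419, 609, 83.5 and 81.3 CPM, higher in each pair. Mecom, a zinc finger factor required in stem cells, had 166, 169, 108 and 117 CPM against 119.6, 164, 60.8 and 53.1 CPM, lower in each pair with the larger ratios in MPP, at a log2 fold change of -0.61 (SE 0.23). Mllt3, a stem cell maintenance factor of the super elongation complex, was lower at a log2 fold change of -1.19 (SE 0.49). DESeq2 called none of these 4.

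Other lineages gave a few genes of one direction. Gp5, a platelet glycoprotein, had 20.7, 29.3, 3.90 and 4.65 CPM against 98.8, 49.2, 12.8 and 6.31 CPM, higher in all 4 pairs. The 12 tested megakaryocyte markers had a median of 0.30, and 8.33% of them had one direction, against 11.1% of all tested genes. Car2, carbonic anhydrase of erythroid and stem cells, had 1521, 1333, 768 and 689 CPM against 1166, 1164, 562 and 589 CPM. It was lower in each pair and within each cell type with no overlap, with a log2 fold change of -0.31 (SE 0.09) and a DESeq2 adjusted p of 0.00709. Hbb-bt, a beta globin, lay in the other direction, by 0.56 (SE 0.33), and 16.7% of the tested erythroid markers had one direction. Nkg7, a granule protein of lymphocytes, was an MPP transcript with 40.9, 34.0, 315 and 291 CPM against 66.2, 44.7, 356 and 371 CPM. In the gate itself, Kit and Ptprc (CD45) were higher in all 4 pairs, Kit by 0.11 (SE 0.10) and Ptprc by 0.49 (SE 0.21). They made up 33.3% of the 6 tested genes of that list.

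Interferon and inflammatory genes were examined because NFAT5 is known to take part in their expression. Of 60 tested genes of the type I interferon response, 40 lay above 0, against 6257 of 12132 tested genes, and the list median was 0.09 against 0.02. In all 4 pairs, 1 was higher and 1 lower, 3.33% of the list against 11.1% of all tested genes. The higher one was Ifitm1, an antiviral membrane protein, with 464, 542, 187 and 188 CPM against 536, 672, 188 and 218 CPM. Usp18, which restrains interferon signalling, was the lower one, with 48.5, 33.3, 24.2 and 0.550 CPM against 44.1, 28.1, 7.83 and 0.396 CPM. Of 28 antigen presentation genes, 1 (3.57%) had one direction: H2-Q7, a class I molecule, was higher in all 4 pairs, with 785, 686, 577 and 413 CPM against 1373, 811, 728 and 427 CPM and a log2 fold change of 0.36 (SE 0.14). As a member of a family of close copies, its reads may be shared. The list of NF-kB and inflammation had 18 tested genes, a median of 0.16 and 2 members lower in all pairs (11.1%, the same share as over all tested genes). These were Nfkbib, an inhibitor of NF-kB, and Rel, an NF-kB subunit.

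Genes of one direction lay on both sides in the lists of ribosome biogenesis, oxidative phosphorylation, glycolysis and p53 targets. The list of chaperones had 0 higher and 2 lower (8.33%), and that of immediate early genes 1 higher and 0 lower (6.25%). Ribosome biogenesis held 3 higher and 2 lower (17.9%), oxidative phosphorylation 2 and 2 (12.5%), glycolysis 1 and 2 (14.3%) and p53 targets 1 and 1 (10%), against 11.1% of all tested genes. Xbp1, a factor of the unfolded protein response, had 333, 259, 245 and 174 CPM against 286, 178, 138 and 115 CPM, lower in each pair, at a log2 fold change of -0.54 (SE 0.14), with a DESeq2 adjusted p of 0.0237. Its list of chaperones had a median of -0.10 over 24 genes, and Bag3, a partner of heat shock proteins, was the other lower member with a log2 fold change of -1.70 (SE 1.93). In ribosome biogenesis, Utp4 had 203, 151, 137 and 176 CPM against 117, 51.6, 102 and 81.3 CPM and did not overlap, with -0.97 (SE 0.27) and a DESeq2 adjusted p of 0.0432. Mybbp1a was the other member lower in all 4 pairs, and Utp20, Wdr75 and Polr1a were higher in all 4, by 2.38, 0.85 and 1.55, so that members of one pathway lay on opposite sides, and the median over 28 genes was -0.03. Among p53 targets, Bax, a pore-forming protein of apoptosis, was higher by 0.46 (SE 0.32) and Rrm2b lower at a log2 fold change of -3.37 (SE 2.10) in all 4 pairs. Slc16a1, a lactate transporter, was lower at a log2 fold change of -0.68 (SE 0.22), in a glycolysis list with a median of -0.10. Of its enzymes, Pfkm was lower and Tpi1 higher in all 4 pairs, with log2 fold changes of -0.19 and 0.13. The list of oxidative phosphorylation had a median of -0.05 over 32 genes. Sdhd and Cox4i1, subunits of respiratory complexes, were higher in all 4 pairs at log2 fold changes of 0.23 and 0.25, and Cox5a and Atp5a1 were lower at -0.10 each.

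Whether the difference between deficient and sufficient libraries was itself different in HSC and MPP was tested with a product term. edgeR called 0 of 12132 genes (percent called 0), with 536 at an unadjusted p under 0.05, which is 4.42%. DESeq2 called 585 of the same 12132 genes. Tgm2, a crosslinking enzyme, was the 1 gene that edgeR called when only the 4669 abundant genes were fitted, an analysis added after the data were seen, with an adjusted p of 0.00359, against 0.133 from edgeR over all genes. It had 839, 539.8, 23.1 and 15.4 CPM in the sufficient libraries and 922, 834, 0 and 0 CPM in the deficient ones. In HSC it was high on both sides, and in MPP it had 697 and 560 counts on the sufficient side and 0 on the deficient side. Socs2, chosen after its values were seen and an inhibitor of cytokine signalling, showed the reverse in MPP, with 0 under WT and IFNAR and 23.6 and 8.30 CPM under N5 and DKO, but its product term had an adjusted p of 1 in edgeR.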

How the data were processed

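Polyadenylated RNA of 8 pools of sorted cells was amplified with Smart-Seq2, per the labels' protocols, a method that amplifies whole transcripts and keeps no molecular identifiers and no strand. The deposited table holds whole-number counts for each gene, without normalization. Per the submitters' processing notes, STAR 2.7.8a, RSEM 1.3.0 and GRCm39 were used; the sources do not name the annotation release or the step that rounded RSEM's estimates.

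In R 4.3.3, edgeR 4.0.16 was run on the counts (quasi-likelihood functions glmQLFit and glmQLFTest, TMM scaling, filterByExpr by cell type) with cell type, Ifnar1 and Nfat5 as terms, which leaves 4 residual degrees of freedom, and with a product of cell type and Nfat5, which leaves 3. Tested genes held 99.458% of counts. P-values were adjusted over all tested genes by Benjamini-Hochberg. The fits were run on simulated data, but they had to pass only at a spread between libraries far below that of these data. The common dispersion, which measures that spread, was 1.139 here. The simulation therefore cannot say how large a difference the test would find in these libraries. CPM were taken over the counts in tested genes, and log2 ratios of pairs had a prior count of 2, with 0 where both libraries had no count. A two-sided sign test over 4 pairs cannot go below 0.125, so directions were counted without a p. Floors were 3 counts per library, and they cover the error of counting reads only. Fold bounds set the mean of one side against the mean floor of the other side. Where a symbol was duplicated, the identifier with more counts was used.

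The members, gene lists and rules were chosen with earlier results of these data known. Named genes were Nfat5, Cenpa, Sgk1 and Slc6a6, the 20 in each direction with the largest weakest pair among genes of 50 CPM or more with one direction, the 10 smallest p-values, the osmotic stress and NFAT lists, and up to 4 members of each other list with a mean of 10 CPM or more and one direction in 4 pairs. Further list members were named after their values were seen. Alternatives were DESeq2 1.42.0, limma-voom (limma 3.58.1), other filters, scalings and terms, subsets of genotypes or cell types, and leaving out each library.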

Additional observations from a re-analysis of the deposited data

Results flagged for a closer look

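Single pairs stood apart from the other 3 of their gene. For each of 117 named genes, the log2 ratios of the 4 pairs were checked with Dixon's criterion, which flags about 1 in 20 sets of values by chance, and 19 genes were picked out. In the HSC pair of DKO and IFNAR, these were Idua at 9.81, Trim26 at 10.25, Brip1os at 5.16, Rrm2 at 1.42, Elane at -10.79, Rel at -8.47 and Ly6c2 at -3.17. In the HSC pair of N5 and WT, they were Myo1g at 2.16, Taok2 at 11.73, Acsl1 at -3.39, Hspa1a at -8.41, Nfatc3 at 8.64, Cenpw at 2.17 and Nfkbib at -2.60. In MPP, Pomgnt2 stood at -7.88, Ehbp1l1 at -1.98 and Mllt3 at -3.19 in the pair of DKO and IFNAR, and Gucy1a1 at -7.44 and Kit at 0.39 in the pair of N5 and WT. Idua, Trim26, Taok2, Pomgnt2, Gucy1a1, Hspa1a, Nfatc3, Elane and Rel had 0 counts in 1 library of the pair named, so the size of these ratios depends on the prior count.

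The difference between HSC and MPP in the log2 fold change of Tgm2 was 12.73 (SE 0.60, adjusted p = 0.00359 in edgeR over the abundant genes). Tgm2 had 0 counts in both MPP libraries of the deficient side, so this size also depends on the prior count.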

How the results depend on the processing

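With each pair as a term, edgeR called 0 genes and 301 had an unadjusted p under 0.05. No paired analysis by replicate number was possible because each group had 1 library. The count of calls stayed at 0 in 21 of 22 alternatives, DESeq2 being the exception with 166. Counts at an unadjusted p under 0.05 were 338 and became 222 with a filter of 10 CPM in 4 libraries, 160 among abundant genes (added after the data were seen), 1358 in DESeq2, 570 in limma-voom, 599 in bias-adjusted quasi-likelihood and 519 with HSC and MPP summed, and ran from 285 to 397 when each library was left out. For the product term, the abundant genes gave 1 call and 210 unadjusted, DESeq2 585 and 1804, and leaving out each library 383 to 918 unadjusted, with 918 and 901 without the HSC libraries labelled WT and IFNAR. Genes of one direction numbered 444 higher and 476 lower at a minimum mean of 20 CPM (5.80% and 6.22%) and 129 and 160 at 100 CPM (5.51% and 6.84%). The causes of these shifts were not tested, apart from the number of genes tested.

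The direction of the 40 abundant genes was fixed by their choice, so that their signs say nothing about stability. Some other named genes changed sign, and the cause was not tested. Over WT and N5 alone, the log2 fold change turned to -0.04 for Nfat5, -0.23 for Akr1b3, 0.49 for Hspa4l, 0.14 for Slc7a5, 0.15 for Nfatc1 and 0.51 for Ppp3ca. Over IFNAR and DKO alone, it was 0.06 for Slc6a6, 0.14 for Slc38a2, -0.48 for Smpdl3a, 0.68 for Pla2g6, -0.84 for Nfatc3, 3.92 for Ppp3cc and -0.22 for Cabin1. In HSC alone, it was -0.10 for Smpdl3a and 0.22 for Pla2g6. In MPP alone, it was -0.12 for Akr1b3, 0.10 for Pla2g6, 0.19 for Nfatc2 and -0.29 for Nfatc3. In limma-voom, it was -0.22 for Smpdl3a and 0.12 for Pla2g6. With bias-adjusted quasi-likelihood, it was -0.01 for Smpdl3a. Without the Ifnar1 term, it was -0.01 for Smpdl3a. With each pair as a term, it was 0.15 for Pla2g6.
With each library left out in turn, the value ran from -0.17 to 0.28 for Akr1b3, from -3.93 to 1.23 for Slc5a3, from -0.60 to 0.02 for Hspa4l, from -0.29 to 0.39 for Smpdl3a, from -0.40 to 0.62 for Pla2g6, from -0.52 to 0.03 for Nfatc1, from -0.14 to 1.80 for Nfatc3, from -1.0 to 0.05 for Ppp3ca, from -0.10 to 0.71 for Cabin1 and from -1.62 to 0.27 for Usp18.

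Of 24 list medians, 87 of 120 alternative values lay within the spread of the pairs. At 50 CPM or more, the error of counting reads is small at these totals. Without molecular identifiers, however, reads do not show how many RNA molecules were sampled. Taok2, at a mean of 89.7 CPM, had 0 counts in HSC WT and 5923 in HSC N5. Having 1 library in each group also leaves the spread within a group unmeasured.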
